A study of Homo sapiens with 12 samples.

Results

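The genes described here are 48 genes of mitosis and of the passage from G2 into mitosis, chosen by symbol for what their products do and found by name among 26365 genes in the deposited table. All 48 passed the filter on low values and were among the 13950 genes tested. They were sorted by textbook role into 7 cyclin and switch genes, 7 mitotic kinases, 6 genes of the spindle checkpoint and anaphase, 7 of the centromere and kinetochore, 12 of motors and spindle, 4 of cytokinesis and the midzone, and 5 of chromosome structure. The RNA came from HCC70, an established human breast cancer line of basal-like, triple-negative type. One kind of cell stably expressed a scrambled control shRNA (scramble cells) and the other an shRNA against LAD1 (shLAD1 cells). LAD1 encodes ladinin 1, which the series' title describes as a filamin binder linked to actin and to epidermal growth factor (EGF). All cells were kept overnight without serum. They were then sampled without EGF (0 min), or after 40 or 240 min with EGF at 50 ng/ml, which gives 6 groups of 2 libraries and 12 libraries in all. No group was kept without EGF for 40 or 240 min. A change from 0 min may thus come from EGF or from further time in culture, which cannot be told apart. The labels give both numbers of shLAD1 libraries the same shRNA tag and mark numbers 1 and 2 with different letters that they do not explain. Whether a number marks a separate culture or clone is not stated, so p-values measure the spread between these libraries, which may be technical.

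A cell enters mitosis when cyclin B and CDK1 become active, which CDC25 phosphatases allow and WEE1 opposes. The spindle checkpoint then holds the anaphase-promoting complex back until every kinetochore is attached, after which separase opens the cohesin rings and the chromatids part. Transcripts of these genes are low in G1, rise from S phase into mitosis and are held down in resting cells by the DREAM complex, which binds a promoter element called the cell cycle genes homology region. Activating complexes of B-MYB, MuvB and FOXM1 use the same element, and NF-Y binds nearby CCAAT boxes. EGF is a mitogen for breast epithelial cells, and cells leaving a serum-free pause pass through G1 and S phase before they divide.

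Letters of this element were searched in the RefSeq promoter windows of these genes (assembly GRCh38.p14, from 250 bases before to 50 after each gene start). A window was found for 41 of the 48 genes, 53 windows in all. FOXM1, AURKA, TTK, BUB3, UBE2C, TPX2 and BIRC5 had none. The homology region was searched as TTTGAA or TTCGAA and the NF-Y box as CCAAT, each on both strands, and matches of the 2 motifs may overlap. The homology region was present in 37 of the 53 windows (69.8%), against 16.4% of all 35116 windows in the table. In the 60 bases before the start it was present in 21 of 53 (39.6%), against 3.17% of all windows. At least 1 CCAAT box was present in 73.6% of the genes' windows and 34.6% of all windows, and at least 2 in 45.3% and 10.8%. A match is a run of letters and does not show that a factor binds there.

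Stretches of 100 bases that end at the base before the start are shown for 8 genes with a match near the start and very different EGF responses. CDC25C and ESPL1 had the largest falls among them, BUB1B, HMMR and CCNB2 smaller ones, and MKI67, PLK1 and PRC1 had estimates nearer to 0. Each is read 5′ to 3′ on the gene's strand, and capitals mark both motifs on either strand.
CDC25C, chr5:138331805-138331904, minus strand: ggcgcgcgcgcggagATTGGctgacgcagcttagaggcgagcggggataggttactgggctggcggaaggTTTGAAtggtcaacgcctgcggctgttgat
ESPL1, chr12:53268199-53268298, plus strand: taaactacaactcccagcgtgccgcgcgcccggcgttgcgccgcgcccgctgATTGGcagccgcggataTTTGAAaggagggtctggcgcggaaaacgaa
HMMR, chr5:163460532-163460631, plus strand: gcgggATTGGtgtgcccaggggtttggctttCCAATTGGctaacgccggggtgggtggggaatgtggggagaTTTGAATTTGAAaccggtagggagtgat
BUB1B, chr15:40160969-40161068, plus strand: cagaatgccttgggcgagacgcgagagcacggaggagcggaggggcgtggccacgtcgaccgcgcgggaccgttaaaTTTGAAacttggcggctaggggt
CCNB2, chr15:59105046-59105145, plus strand: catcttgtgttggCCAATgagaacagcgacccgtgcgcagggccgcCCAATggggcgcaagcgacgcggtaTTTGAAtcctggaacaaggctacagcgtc
MKI67, chr10:128126424-128126523, minus strand: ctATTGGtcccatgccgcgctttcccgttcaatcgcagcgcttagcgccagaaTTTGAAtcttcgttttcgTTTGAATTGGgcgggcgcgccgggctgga
PLK1, chr16:23678789-23678888, plus strand: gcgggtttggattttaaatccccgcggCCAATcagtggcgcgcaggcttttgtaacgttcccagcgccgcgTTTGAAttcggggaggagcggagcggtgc
PRC1, chr15:90994536-90994635, minus strand: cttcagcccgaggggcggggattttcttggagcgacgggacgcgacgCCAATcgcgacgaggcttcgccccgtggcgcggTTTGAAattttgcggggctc

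**Figure D1:**
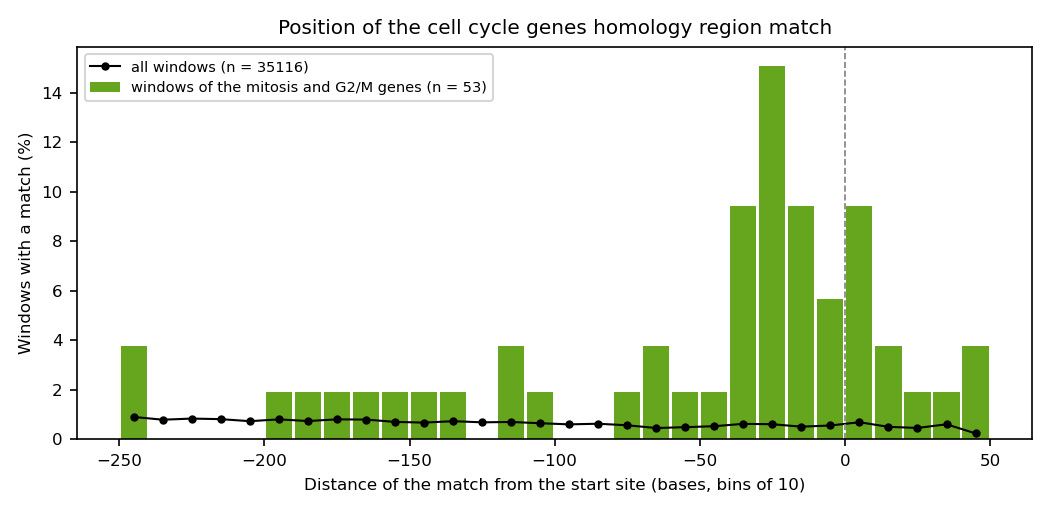
Share of promoter windows (percent) with a match to the cell cycle genes homology region starting in each 10-base bin, by distance in bases from the gene start (dashed line). Green bars are the 53 windows of the mitosis and G2/M genes and the black line is all 35116 windows; the tallest bar, 15.1%, lies 30 to 20 bases before the start, where all windows have 0.601%.

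The libraries held 12428618 to 16721013 reads, recovered from the deposited normalized counts, and the 2 scramble 40 min libraries were the deepest, with 16721013 and 16011936. LAD1 stood at 5925 and 6406 normalized counts in scramble cells and 1091 and 865 in shLAD1 cells at 0 min, and its mean difference over the 3 times was -2.39 ± 0.08 (log2, SE), a knockdown that left LAD1 RNA measurable. The basal markers KRT5 (39623 to 78195 normalized counts), KRT17 and EGFR and the epithelial marker CDH1 were high in every library. The basal keratins KRT6A (344 to 4276) and KRT14 (520 to 1882) stood below KRT5, and TP63, another basal marker, stood at 15.4 to 34.5. The luminal markers KRT8 (7463 to 20330), KRT18 (2969 to 10079), GATA3 (1198 to 1709) and FOXA1 (963 to 2631) were also well above 0 in every library. ESR1 stayed between 18.0 and 29.0 normalized counts and PGR at or under 1.03. The fibroblast marker DCN was at 0 and the leukocyte marker PTPRC at or under 1.11, while COL1A1 (243 to 895) and CD14 (547 to 1354) were present in every library.

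At 40 min of EGF no mitosis or G2/M gene was called by limma-trend without a block. In scramble cells 0 of 48 were called in either direction at a limma-trend adjusted p under 0.05, where 0.846% of all tested genes were called higher and 0.00717% lower. In shLAD1 cells 0 of 48 were called as well, beside 1.02% of all genes called higher and 0.0215% lower. The median log2 change was -0.02 in scramble cells and 0.01 in shLAD1 cells, and only 1 gene in each had an unadjusted p under 0.05. edgeR and DESeq2 on the recovered reads also called 0.

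Small movements at 40 min can be read only pair by pair, since libraries of 1 number deviate together. Of the 48 genes 11 (22.9%) were lower and 6 (12.5%) higher in 4 of 4 same-numbered pairs, against 13.9% and 15% of all tested genes. The share that was higher is thus no larger than that of all genes. The 11 lower ones were CCNA2, FOXM1, PLK1, AURKA, BUB1B, PTTG1, KIF20A, INCENP, TOP2A, NCAPD2 and MKI67, and the 6 higher ones CENPE, KIF23, KIF2C, KIF14, PRC1 and ANLN. Of these KIF23 was singled out after its values were seen. KIF23, the midzone motor of centralspindlin, had 2100.3 and 2043 normalized counts at 0 min and 2314 and 2313 at 40 min in scramble cells, and 2043 and 1934 then 2364 and 2198 in shLAD1 cells. Its 40 min libraries lay above its 0 min libraries in both kinds of cell. The log2 change was 0.16 ± 0.07 (SE) in scramble and 0.20 ± 0.07 in shLAD1 cells, with limma-trend adjusted p of 1 and 0.56. With a block for each cell population (shRNA by number) KIF23 was called higher in shLAD1 cells, with a limma-trend adjusted p of 0.0113, where 4.02% of all tested genes were called higher. By 240 min KIF23 had fallen, to 1601 and 1535 in scramble and 1505 and 1418 in shLAD1 cells.

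At 240 min of EGF the group fell together. In scramble cells 30 of 48 genes were called lower and 0 higher than at 0 min, where 8.44% of all tested genes were called lower and 11.7% higher. In shLAD1 cells 24 of 48 were called lower and 0 higher, beside 7.76% and 10.8% of all genes. The median log2 change of the 48 was -0.44 in scramble and -0.43 in shLAD1 cells, against -0.02 and -0.01 over all tested genes. Every one of the 48 estimates lay below 0 in both kinds of cell. In scramble cells both 240 min libraries lay below both 0 min libraries for 47 genes, and in shLAD1 cells for 37, where 32.2% and 26.6% of all tested genes did so. In 4 of 4 same-numbered pairs 47 genes were lower, against 32.9% of all genes, and the exception was UBE2C. The share of all normalized counts that fell to the 48 genes was 0.753% to 0.891% in the 0 and 40 min libraries and 0.549% to 0.621% at 240 min. In cultures measured in bulk, fewer cells in G2 and mitosis and less of these RNAs per cell cannot be told apart.

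The 2 numbers shared by the libraries bear on these counts. With the replicate number as a block 41 genes were called lower in scramble and 36 in shLAD1 cells, beside 14.7% and 13.3% of all tested genes. With a block for each population, chosen after seeing the data, 46 of 48 genes were called lower in each kind of cell, all but BUB3 and UBE2C, where 22.9% of all tested genes were called lower in scramble and 21.6% in shLAD1 cells. Leaving out 1 library leaves 1 in its group. The median log2 change of the 48 in scramble cells was then -0.47 or -0.43 without 0 min library 1 or 2. It was -0.44 or -0.43 without 240 min library 1 or 2. Through all 13 alternative settings 18 of the 30 scramble calls and 17 of the 24 shLAD1 calls held.

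**Figure D2:**
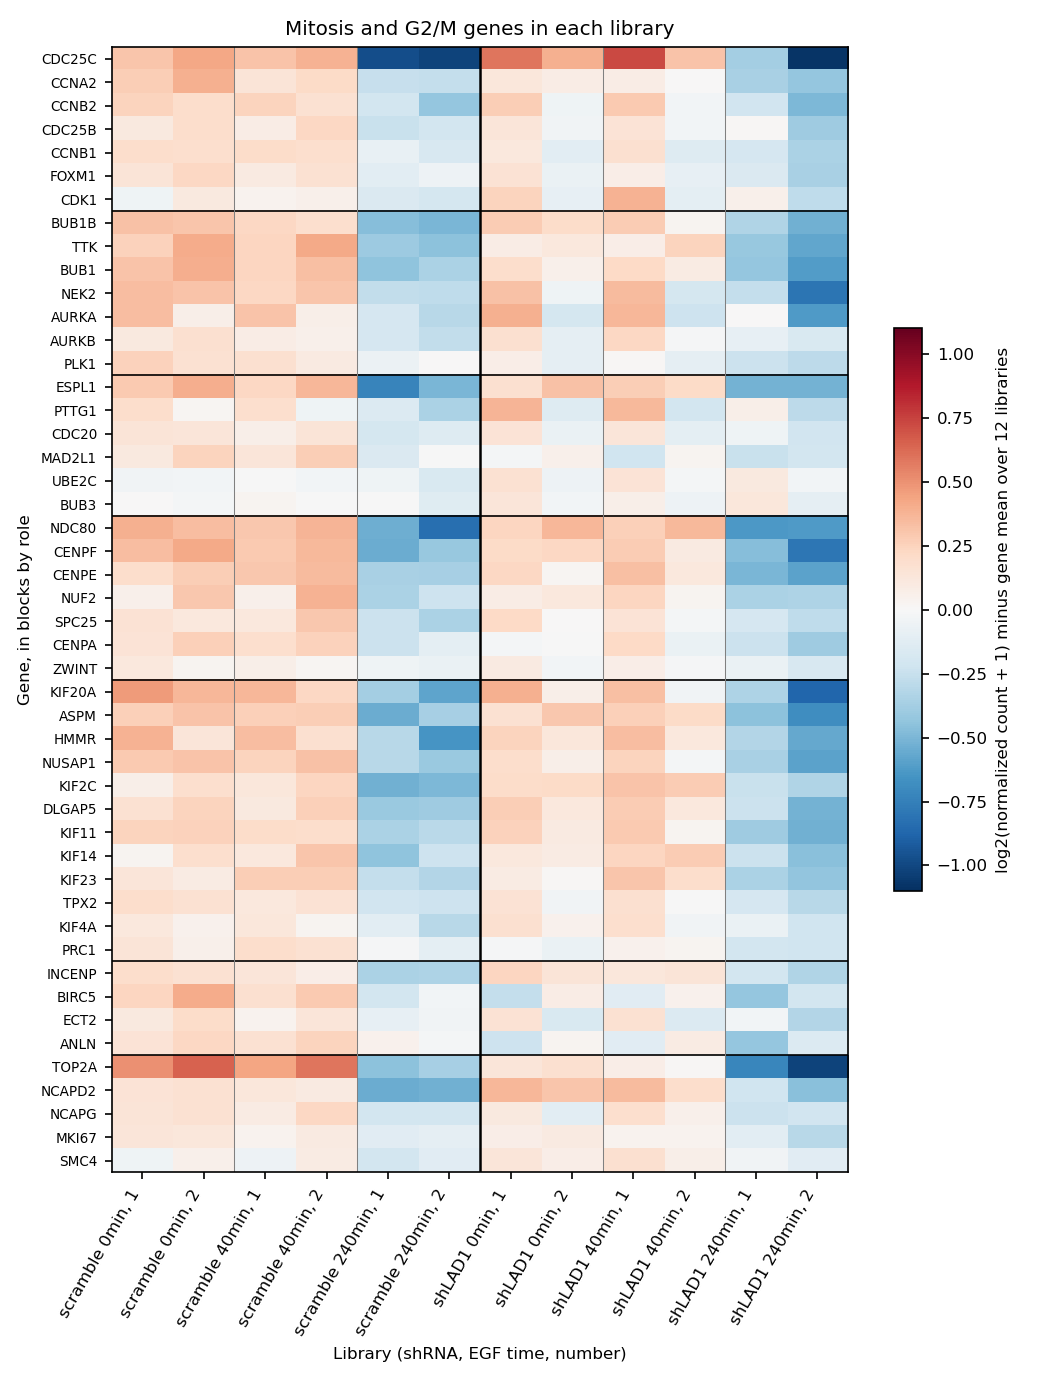
Log2(normalized count + 1) of each of the 48 genes (rows, in blocks by role) in each of the 12 libraries (columns), as the difference from the gene's mean over the libraries; red is above and blue below that mean. The 240 min columns are blue in most rows, with medians of -0.24, -0.28, -0.24 and -0.37, while the 8 columns of 0 and 40 min have medians of 0.03 to 0.22.

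The cyclins and CDK1 switches were led by CDC25C, the phosphatase that removes the inhibitory phosphates from CDK1. CDC25C had 300.2 and 326 normalized counts at 0 min, 301 and 316 at 40 min and 123 and 119 at 240 min in scramble cells. In shLAD1 cells it had 365 and 319, then 402 and 302, then 187 and 114. The 240 min libraries were the lowest in both kinds of cell, without overlap. The change from 0 to 240 min was -1.36 ± 0.22 (log2, SE) in scramble cells (limma-trend adjusted p 0.00272) and -1.22 ± 0.22 in shLAD1 cells (0.00539), the largest of the 48 in both, and left 38.8% and 43.1% of the starting level. CCNA2, the cyclin of S phase and early mitosis, had 1648 and 1795 normalized counts at 0 min and 1147 and 1143 at 240 min in scramble cells, and 1491 and 1451 then 1070.2 and 1021 in shLAD1 cells. Its fall of -0.59 ± 0.07 and -0.49 ± 0.07 passed the test in both.

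Of the B cyclins CCNB1 and CCNB2 and their kinase, the test called only CCNB2, in scramble cells. CCNB2 fell by 0.53 on the log2 scale in scramble cells (limma-trend adjusted p 0.0323) and its estimate was -0.46 in shLAD1 cells (0.058). CCNB1, the main mitotic cyclin, had estimates of -0.32 ± 0.12 and -0.27 ± 0.12 and was not called. CDK1, its partner, had estimates of -0.20 ± 0.18 and -0.19 ± 0.18. CDC25B (-0.37 and -0.24) and FOXM1 (-0.27 and -0.30), the transcription factor of G2/M genes, were not called either. In this role 3 of 7 genes were called lower in scramble and 2 of 7 in shLAD1 cells.

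Among the mitotic kinases the 3 checkpoint kinases were called lower and the others mostly missed the threshold. BUB1B, which encodes BUBR1 of the mitotic checkpoint complex, had 1587 and 1574 normalized counts at 0 min and 919 and 897 at 240 min in scramble cells, and 1545 and 1457 then 1011 and 879 in shLAD1 cells. BUB1, which recruits checkpoint proteins to the kinetochore, had 1394 and 1474 then 822 and 878 in scramble cells, and 1284 and 1163 then 835 and 729 in shLAD1 cells. The groups did not overlap for either gene. BUB1B changed by -0.80 ± 0.10 and -0.67 ± 0.10 (log2, SE), BUB1 by -0.75 ± 0.09 and -0.65 ± 0.09, and TTK, the kinase that starts the checkpoint, by -0.76 ± 0.10 and -0.59 ± 0.10. All 3 were called in both kinds of cell. AURKB, the kinase of the chromosomal passenger complex, was called only in the scramble test, at -0.37 ± 0.11, and stood at -0.17 ± 0.11 in shLAD1 cells.

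PLK1, NEK2 and AURKA were not called by limma-trend without a block. With a block for each population each was called lower in both kinds of cell, where 22.9% and 21.6% of all tested genes were. PLK1, which acts from mitotic entry to cytokinesis, was close to the threshold with -0.24 ± 0.08 and -0.25 ± 0.08 and limma-trend adjusted p of 0.0587 and 0.0506. NEK2, a centrosome kinase, had estimates as large as those of called genes, -0.60 and -0.67, with an SE of 0.21. Its libraries of number 1 and 2 in shLAD1 cells differed, at 1235 and 957 normalized counts at 0 min and 823 and 567 at 240 min. AURKA, the kinase of the spindle poles, had -0.45 and -0.41 with an SE of 0.28. Within same-numbered pairs NEK2 changed by -0.61 and -0.59 in scramble and -0.59 and -0.75 in shLAD1 cells. AURKA changed by -0.52 and -0.37, and by -0.39 and -0.43.

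In the spindle checkpoint and anaphase genes 1 of 6 was called lower, ESPL1, which encodes separase. All but UBE2C were lower at 240 min in 4 of 4 same-numbered pairs, where 32.9% of all tested genes were. ESPL1 had 1114 and 1204 normalized counts at 0 min, 1072 and 1179.8 at 40 min and 552 and 645 at 240 min in scramble cells. In shLAD1 cells it had 1032 and 1139.8, then 1102 and 1059, then 637 and 636. The change was -0.96 ± 0.10 (log2, SE) and -0.77 ± 0.10, with limma-trend adjusted p of 0.000341 and 0.00106. PTTG1, the securin that holds separase inactive, had estimates of -0.35 ± 0.23 and -0.23 ± 0.23. CDC20, the coactivator of the anaphase-promoting complex, had -0.31 ± 0.10 and -0.17 ± 0.10, and MAD2L1, which binds CDC20 in the checkpoint, had -0.26 ± 0.11 and -0.24 ± 0.11.

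The remaining pair lay nearest to 0. UBE2C, the ubiquitin-conjugating enzyme of the anaphase-promoting complex, had 1916 and 1929.9 normalized counts at 0 min and 1898 and 1750.2 at 240 min in scramble cells, and 2206 and 1886 then 2119 and 1927 in shLAD1 cells. BUB3, which carries BUB1 and BUBR1 to the kinetochore, had 1672 and 1637 then 1655 and 1519, and 1826 and 1633 then 1811 and 1551. The groups overlapped for both genes in shLAD1 cells and for BUB3 in scramble cells. Estimates were -0.08 ± 0.10 and -0.01 ± 0.10 for UBE2C and -0.06 ± 0.09 and -0.04 ± 0.09 for BUB3. The 95% intervals reached down to -0.29 and -0.23 for UBE2C and -0.27 and -0.26 for BUB3, so a fall of that size could have been missed.

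Of the 7 centromere and kinetochore genes 6 were called lower in scramble cells and 4 in shLAD1 cells. NDC80, the microtubule-binding subunit of the outer kinetochore, had 1215 and 1174 normalized counts at 0 min, 1141 and 1202 at 40 min and 638 and 519.9 at 240 min in scramble cells. In shLAD1 cells it had 1089 and 1191, then 1110.2 and 1188, then 596 and 599. The 4 libraries of 240 min all lay below the other 8. The change was -1.05 ± 0.10 (log2, SE) and -0.93 ± 0.10, to 48.3% and 52.5% of the level at 0 min, with limma-trend adjusted p of 0.000265 and 0.00055. CENPF, a large protein of the outer kinetochore, had 4635 and 4904 then 2517 and 2754 normalized counts in scramble cells, and 4253 and 4289 then 2651 and 2118 in shLAD1 cells. It fell in both (log2 change -0.86 and -0.85).

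The partners of NDC80 fell less in estimate. NUF2 changed by -0.46 ± 0.13 and -0.45 ± 0.13 and was called in both kinds of cell, and SPC25 by -0.43 ± 0.11 (called) and -0.34 ± 0.11 (limma-trend adjusted p 0.0595). CENPE, the kinetochore motor, fell in both (-0.60 and -0.67). CENPA, the histone variant that marks the centromere, had -0.38 ± 0.11 (called) and -0.30 ± 0.11 (not called). ZWINT, which links the outer kinetochore to the RZZ complex, was called in neither, with -0.13 ± 0.07 and -0.16 ± 0.07.

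Of the 12 motor and spindle genes 10 were called lower in each kind of cell, and the 2 not called were KIF4A and PRC1 in both. KIF2C, a kinesin that takes microtubule ends apart, had 2585 and 2815 normalized counts at 0 min and 1713 and 1760.2 at 240 min in scramble cells, and 2859.7 and 2876 then 2087 and 1966 in shLAD1 cells. ASPM, a protein of the spindle poles, had 2082 and 2168 then 1195 and 1354, and 1956 and 2143 then 1271 and 1081. No library of 240 min reached the lowest library of 0 min. KIF2C changed by -0.64 ± 0.07 and -0.50 ± 0.07 (log2, SE) and ASPM by -0.74 ± 0.09 and -0.80 ± 0.09.

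The log2 changes of the other 8 lay between -0.89 and -0.31. KIF20A, the kinesin that brings the passenger complex to the midzone, had the largest estimates, -0.89 ± 0.19 and -0.83 ± 0.19. HMMR, a spindle assembly factor, had -0.73 and -0.62, and NUSAP1, which bundles spindle microtubules, -0.66 and -0.60. DLGAP5, a factor of kinetochore fibres, had -0.60 and -0.57, and KIF11, the kinesin that pushes the poles apart, -0.57 and -0.63. KIF14 (-0.44 and -0.45), KIF23 (-0.40 and -0.44) and TPX2 (-0.40 and -0.31), the activator of Aurora A, completed the 10. KIF4A, a chromosome-bound kinesin, had -0.29 ± 0.10 and -0.25 ± 0.10, and PRC1, which crosslinks midzone microtubules, -0.16 ± 0.06 and -0.17 ± 0.06.

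Of the 4 cytokinesis and midzone genes INCENP was called lower in both kinds of cell. INCENP, the scaffold of the passenger complex, had 1799 and 1768 normalized counts at 0 min and 1236 and 1238 at 240 min in scramble cells, and 1852 and 1734 then 1361 and 1251 in shLAD1 cells, without overlap. The change was -0.53 ± 0.07 (log2, SE) and -0.46 ± 0.07. BIRC5 (survivin), another subunit, fell by 0.44 in scramble cells at a limma-trend adjusted p of 0.0489 and had -0.22 ± 0.14 in shLAD1 cells. ECT2 (-0.22 and -0.17), which activates RhoA at the cleavage site, and ANLN (-0.17 and -0.19), the scaffold of the contractile ring, were not called.

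Among chromosome structure genes TOP2A moved most. TOP2A, the topoisomerase that untangles sister chromatids, had 4954 and 5493 normalized counts at 0 min, 4721 and 5253 at 40 min and 2559 and 2709 at 240 min in scramble cells. In shLAD1 cells it had 3829 and 3949, then 3679 and 3523, then 2128 and 1729. The shLAD1 libraries were the lower ones at every time, and within each kind of cell the 240 min libraries were lowest. The change from 0 to 240 min was -0.99 ± 0.10 (log2, SE) and -1.02 ± 0.10, to 50.5% and 49.3% of the level at 0 min, with limma-trend adjusted p of 0.000421 and 0.000425. NCAPD2, a subunit of condensin I, had 2762 and 2801 then 1703 and 1726 normalized counts in scramble cells, and 3206 and 3072 then 2137 and 1815 in shLAD1 cells. It fell in both (-0.70 and -0.67). NCAPG, another condensin I subunit, was called only in the scramble test (-0.36 ± 0.09 and -0.22 ± 0.09). MKI67, the proliferation marker Ki-67, fell slightly in both (-0.24 and -0.29), and SMC4, a core condensin subunit, had -0.17 ± 0.08 and -0.18 ± 0.08.

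**Figure D3:**
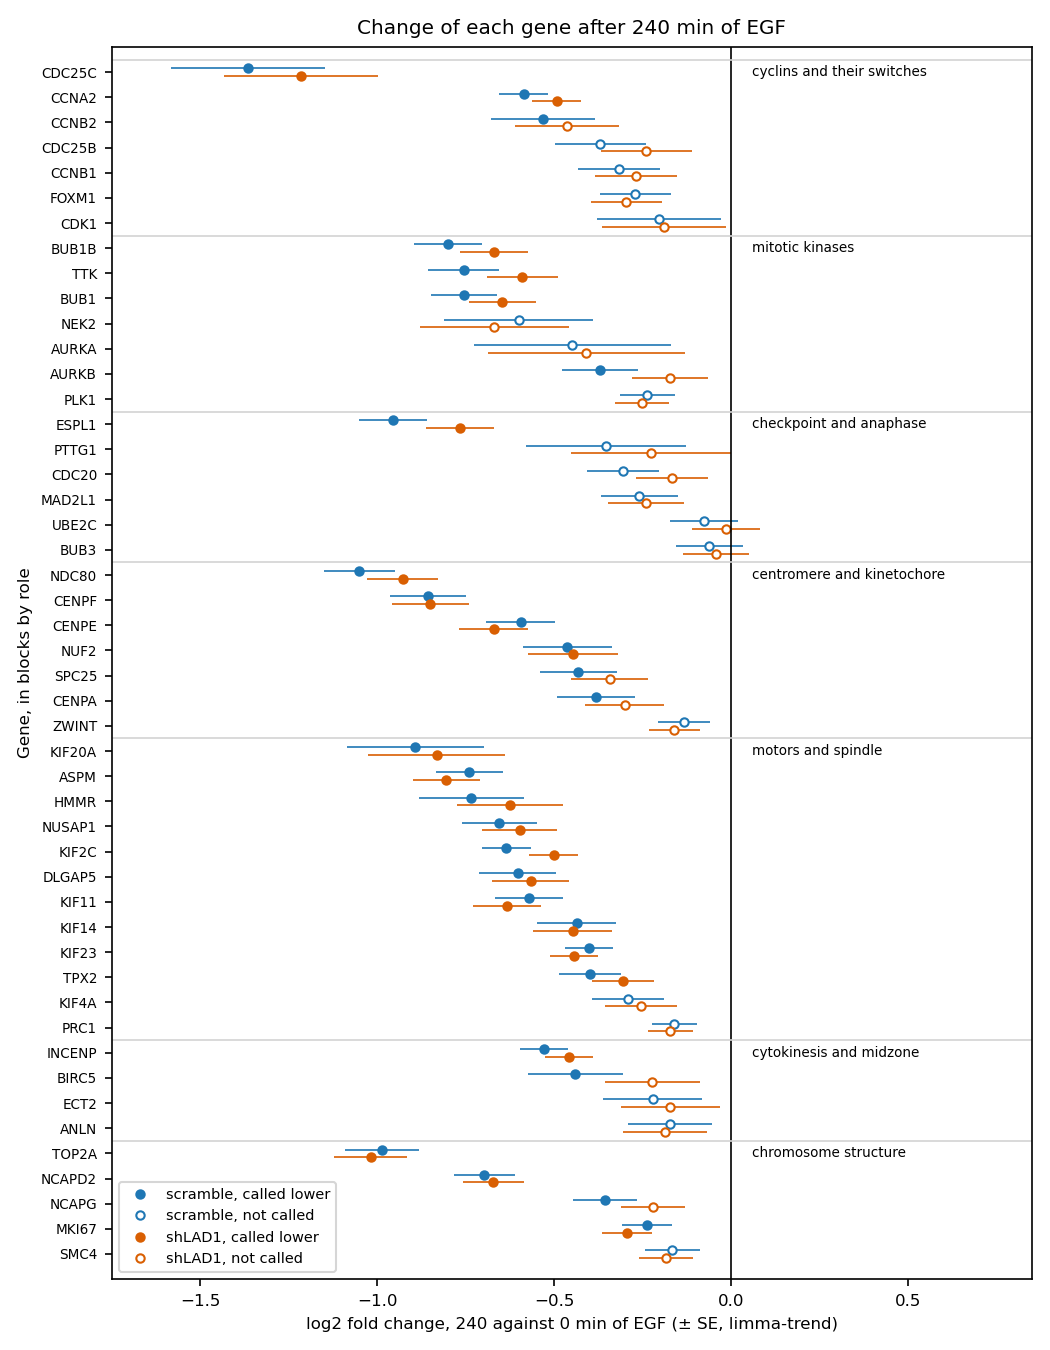
Log2 fold change of each of the 48 genes from 0 to 240 min of EGF with its SE, in blocks by role; blue is scramble and orange shLAD1 cells, and filled points were called lower by limma-trend. Every point lies to the left of 0, from -1.36 for CDC25C to -0.01 for UBE2C, and the blue and orange points of a gene lie close together.

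The change came after 40 min. From 40 to 240 min 28 of 48 genes were called lower in scramble cells, where 8.34% of all tested genes were called lower and 10.2% higher. In shLAD1 cells 27 of 48 were called lower, beside 7.56% of all genes lower and 8.84% higher. This comparison shares its 240 min libraries with the one above. NDC80 changed by -1.02 ± 0.10 (log2, SE) between 40 and 240 min in scramble cells, beside -1.05 from 0 min, and TOP2A by -0.92 ± 0.10, beside -0.99. PRC1, not called from 0 min, was called from 40 min in both kinds of cell. With a block for each population the counts were 45 and 45, beside 22.1% and 21.2% of all genes called lower. The median change of the 48 from 40 to 240 min was -0.44 in scramble and -0.39 in shLAD1 cells. Without scramble 40 min library 2 it was -0.42 in scramble cells. Without shLAD1 240 min library 2 it was -0.35 in shLAD1 cells.

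**Figure D4:**
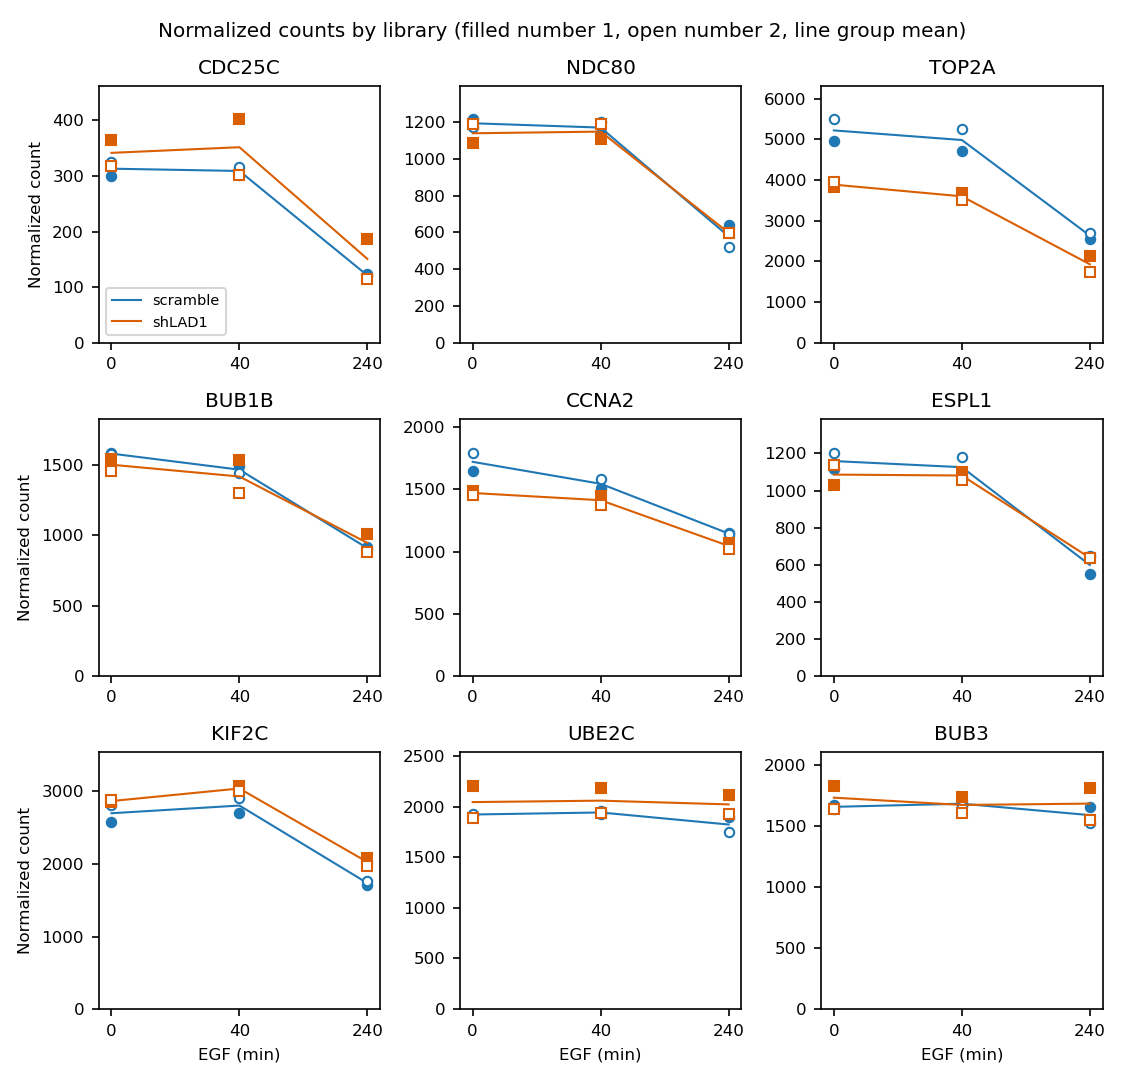
Normalized counts of 9 of the genes in each library at 0, 40 and 240 min of EGF (times evenly spaced, y axes from 0); circles and blue lines are scramble cells, squares and orange lines shLAD1 cells, filled symbols number 1, open symbols number 2 and lines the means of 2 libraries. All but UBE2C and BUB3 step down clearly between 40 and 240 min. For UBE2C and BUB3 the 240 min libraries lie slightly below those of 40 min in scramble cells and overlap them in shLAD1 cells. TOP2A of shLAD1 cells lies below that of scramble cells at all 3 times.

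The fall did not differ detectably between scramble and shLAD1 cells. The difference of the 240 min responses called 0 of 48 genes, and 0% of all tested genes, with limma-trend. None of the 48 had an unadjusted p under 0.05 in that test, and edgeR and DESeq2 called 0 as well. The 6 genes called in scramble cells only were CCNB2, AURKB, CENPA, SPC25, BIRC5 and NCAPG, and for them too the difference was not shown. The largest estimate of a difference was that of BIRC5, 0.22 ± 0.19 (log2, SE), with a 95% interval from -0.21 to 0.65. Of the 48 differences 34 lay above 0, with a median of 0.05. This sign rested on single libraries. Without shLAD1 240 min library 1 the median was -0.04 with 30 genes below 0, and without shLAD1 0 min library 2 it was -0.0095 with 27 below 0. Without shLAD1 240 min library 2 it was 0.13, and without shLAD1 0 min library 1 it was 0.12. Across the 48 genes the 240 min changes in the 2 kinds of cell had a Pearson r of 0.962 and a Spearman rho of 0.941, given as a description over genes that share libraries. The difference of the 40 min responses also called 0 of 48, and 0% of all genes, with none at an unadjusted p under 0.05.

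Genes with a promoter match near the start did not have the larger median fall. Of the 41 genes with a window, 20 had the homology region in the 60 bases before the start, and their median log2 change at 240 min in scramble cells was -0.39. The 21 without it had a median of -0.60. In shLAD1 cells the medians were -0.32 and -0.50. Some of the 21, among them BUB1 and KIF14, had a match just after the start. Over the whole window 33 genes had a match and 8 had none. Their medians were -0.44 and -0.59 in scramble cells and -0.45 and -0.50 in shLAD1 cells. CDC25C and ESPL1, shown above, were among the largest falls, while PLK1 and PRC1, with the same letters in the same stretch, were not called. These medians are a description.

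Other genes of the cell cycle were taken from lists set out by function. Of 78 tested mitosis genes outside the 48, 31 were called lower and 2 higher at 240 min in scramble cells, and 27 lower and 3 higher in shLAD1 cells, with medians of -0.31 and -0.25. Of all tested genes 8.44% and 7.76% were called lower and 11.7% and 10.8% higher. The smallest adjusted p among the 78 were those of DEPDC1 (-0.81 and -0.88), HMGB2 (-0.87 and -0.74), CIT, the citron kinase of cytokinesis (-0.89 and -0.91), CKAP2 (-0.60 and -0.58) and DSN1 of the kinetochore (-0.68 and -0.80). TUBB4B (0.43 and 0.44) and TRIP13 (0.34 and 0.32) rose in both, and UBE2S (0.37) in shLAD1 cells. WEE1, the kinase that opposes CDC25C, had 451 and 506 normalized counts at 0 min, 676 and 679.7 at 40 min and 335 and 311 at 240 min in scramble cells, and 449.7 and 439, then 725 and 689, then 394 and 323 in shLAD1 cells. WEE1 was thus highest at 40 min in both. Its 240 min change was -0.56 ± 0.11 (log2, SE), called, in scramble cells and -0.32 ± 0.11, not called except with the replicate block and with upper-quartile or total-count scaling, in shLAD1 cells.

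Of 12 cohesin genes 4 were called lower in each kind of cell, beside 8.44% and 7.76% of all tested genes. Among the cohesin genes called were RAD21 (-0.43 and -0.38), the subunit that separase cuts, ESCO2 (-0.82 and -0.85) and NIPBL (-0.24 and -0.26). Of 16 genes of the anaphase-promoting complex and its regulators 1 and 2 were called lower, beside 8.44% and 7.76% of all tested genes. They were ANAPC2 in both (-0.34 and -0.32) and CDC27 in shLAD1 cells (-0.30). FZR1, the coactivator that keeps the complex active in G1, had -0.11 ± 0.11 and -0.05 ± 0.11. Among 39 genes of the G1/S transition and DNA replication 7 and 6 were called lower and 0 higher, with medians of -0.18 and -0.16. With the replicate block 14 and 15 were called lower, beside 14.7% and 13.3% of all genes. ORC1 (-0.58 and -0.69), a subunit of the origin recognition complex, PRIM1 of the primase (-0.61 and -0.62), RFC3 (-0.33 and -0.31) and MCM2 of the replicative helicase (-0.42 and -0.38) were among them.

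Of 24 genes of DREAM, MuvB, MYB, E2F and NF-Y 6 were called lower and 2 higher in each kind of cell, where 8.44% and 7.76% of all tested genes were called lower. With the replicate block 10 were called lower in each, beside 14.7% and 13.3% of all genes. The 2 called higher are a share no larger than that of all genes called higher (11.7% and 10.8%). LIN54, the MuvB subunit that binds the homology region, fell in both (-0.57 and -0.58), as did E2F8, a repressor E2F (-0.66 and -0.62). E2F3 rose by 0.43 and 0.38. MYBL2, which encodes B-MYB, had 0.11 ± 0.16 and 0.11 ± 0.16, and E2F1 -0.22 ± 0.19 and -0.16 ± 0.19. The sign of MYBL2 turned with total-count scaling.

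Among 19 CDK inhibitors and p53 targets 3 were called higher and 4 lower in scramble cells, and 3 higher and 5 lower in shLAD1 cells. Of all tested genes 11.7% and 10.8% were called higher and 8.44% and 7.76% lower. CDKN1A, which encodes the CDK inhibitor p21, had 1088 and 917 normalized counts at 0 min, 2778 and 2798 at 40 min and 4252 and 3956 at 240 min in scramble cells. In shLAD1 cells it had 1385 and 1904, then 3446 and 5653, then 4226 and 5949. All 8 libraries with EGF lay above all 4 without it. The 240 min change of CDKN1A was 2.04 ± 0.25 (log2, SE) and 1.63 ± 0.25. PLK3 rose by 2.02 and 2.16 and GADD45A by 1.42 and 1.42, while CDKN2C, the CDK4 and CDK6 inhibitor p18, fell (-1.31 and -1.22), as did BTG2 (-1.62 and -1.96). A list of 7 genes held G1 cyclins, their kinases and the transcription factor MYC. Of the 6 that were tested, MYC (1.07 and 1.45) and CCND3 (0.52 and 0.39) rose. CCND1 had 1.41 ± 0.53 and 1.80 ± 0.53, not called. Their part in the fall of the 48 genes was not tested.

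The LAD1 shRNA came with small differences in a minority of the 48 genes. Averaged over the 3 times, 6 of 48 were called lower and 2 higher in shLAD1 than in scramble cells, 8 in all, where 9.3% of all tested genes were called lower and 9.25% higher (18.6% called). The share among the 48 is thus near that of all genes. TOP2A had the largest difference, -0.45 ± 0.06 (log2, SE; limma-trend adjusted p 0.00176), with the values given above. BIRC5 had 1457, 1640.0, 1395, 1505, 1072 and 1211 normalized counts in scramble cells and 1026, 1309, 1130.5, 1276, 919.8 and 1072 in shLAD1 cells, in order of time and number. ANLN ran from 5685 to 6833 in scramble and from 4313 to 6147 in shLAD1 cells. Each number of shLAD1 cells was below its scramble counterpart at all 3 times for both genes.

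BIRC5 differed by -0.29 ± 0.08, ANLN by -0.27 ± 0.07, PLK1 by -0.21 ± 0.04, CCNA2 by -0.16 ± 0.04 and PRC1 by -0.14 ± 0.04. NCAPD2 (0.18 ± 0.05) and KIF2C (0.14 ± 0.04) were the 2 higher ones. For each of the 48 genes the 6 shLAD1 libraries overlapped the 6 scramble libraries in range, which span the 3 times. Most tested genes overlapped too, as 3.99% of all lay wholly lower and 3.16% wholly higher. At a single time limma-trend called 0 of 48, at 0 min (background 1.56% of all genes called), 40 min (1.65%) and 240 min (0.953%). An unadjusted limma-trend p under 0.05 was reached by 7, 3 and 6 of the 48. The share of all genes at that unadjusted threshold was not taken, so these 3 counts have no background and are not read further. With the replicate block 4, 3 and 4 were called, TOP2A each time, beside 11.5%, 11.3% and 10.5% of all genes. DESeq2 called 1 at each time, beside 3.66%, 3.86% and 2.72% of all genes.

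These calls depend on what is taken as the replicate. With the replicate block 14 of the 48 were called, 12 lower and 2 higher, where 36.1% of all tested genes were called. With each of the 4 populations as 1 sample, 2 against 2, none was called, and TOP2A had a limma-trend adjusted p of 0.219. Leaving out 1 library gave 2 to 9, with 5 or fewer for 10 of the 12 libraries, all but shLAD1 library 2 of 40 and of 240 min. TOP2A and PLK1 held in 20 of 21 alternatives, CCNA2 in 16, BIRC5 and PRC1 in 13, ANLN in 11, and KIF2C and NCAPD2 in 9.

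The library numbers also differed from each other. The difference between shLAD1 and scramble cells had a median of 0.02 (log2) over the 48 genes in number 1, with 22 genes below 0, and of -0.15 in number 2, with 41 below 0. All tested genes had medians near 0 in both. Signs were opposite for 23 of the 48 genes, both negative for 20 and both positive for 5. CDC25C, with 0.43 in number 1 and -0.05 in number 2, and NEK2, with 0.04 and -0.46, were the widest apart. TOP2A was lower in both, at -0.33 and -0.57, as were BIRC5 (-0.34 and -0.25), ANLN (-0.38 and -0.16), PLK1 (-0.17 and -0.25), CCNA2 (-0.10 and -0.22) and PRC1 (-0.16 and -0.13). Within shLAD1 cells library 2 was lower than library 1 for 35, 40 and 42 of the 48 genes at 0, 40 and 240 min, against about 49% of all genes at each time. Within scramble cells it was lower for 20, 18 and 26.

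**Figure D5:**
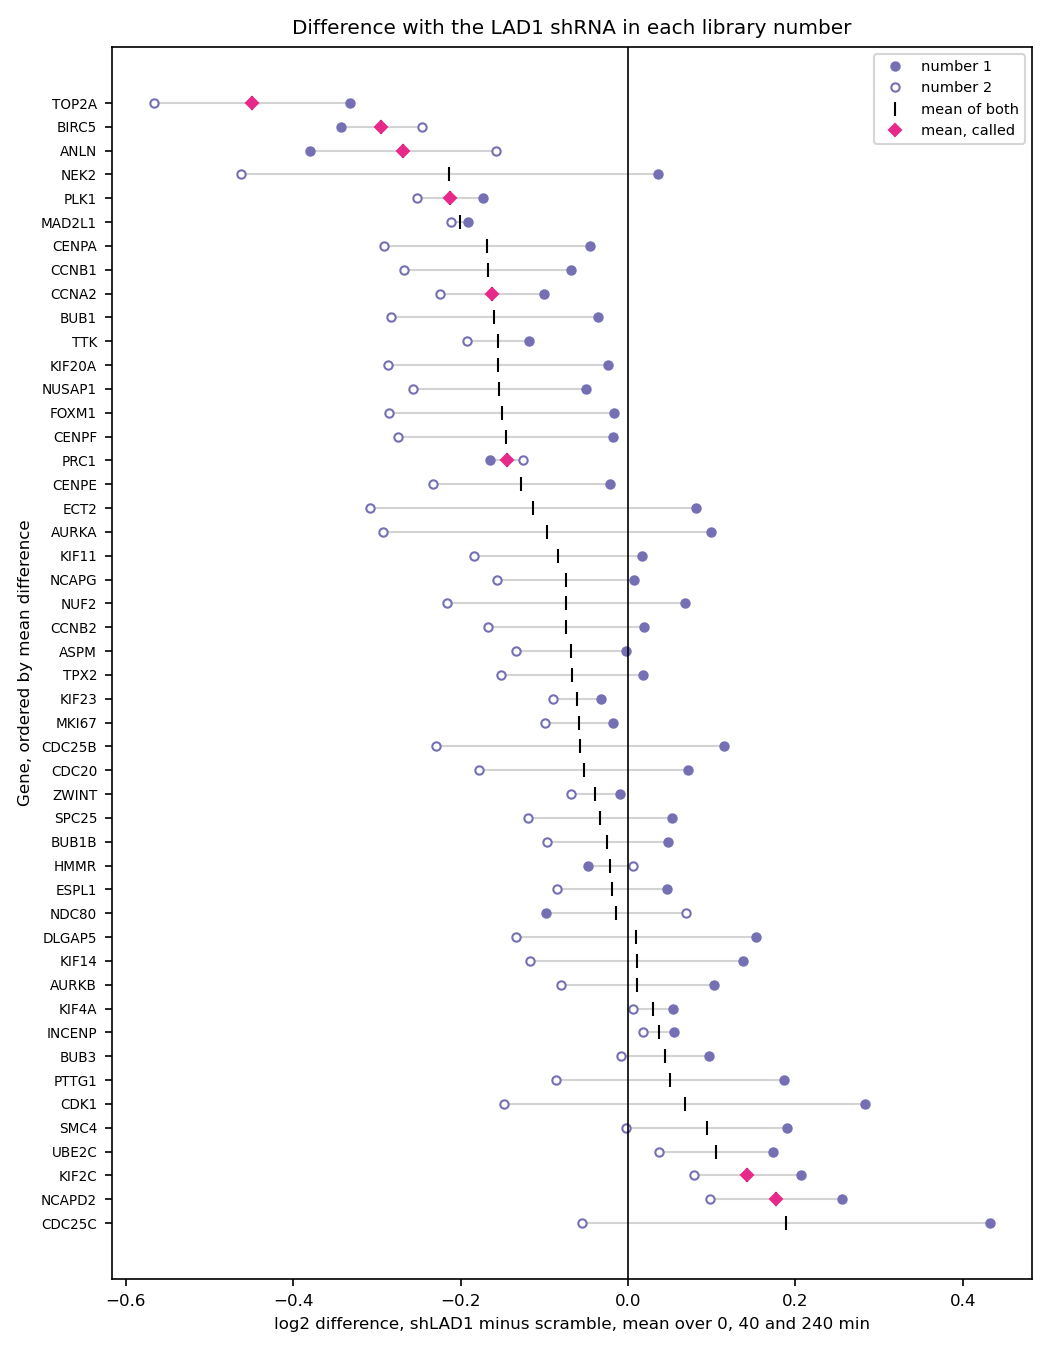
Log2 difference between shLAD1 and scramble cells, averaged over 0, 40 and 240 min, for each of the 48 genes within library number 1 (filled) and number 2 (open); black ticks are the mean of both, and pink diamonds mark the 8 genes called on that mean by limma-trend. Open circles lie to the left of 0 for 41 genes and filled circles for 22, and the 8 called genes have both on the same side.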

How the data were processed

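Libraries of poly-A RNA (TruSeq v2, per the labels' protocols) were sequenced. The submitters' processing notes name STAR, DESeq2 and hg19. Versions, counting tool, annotation and strand use were not given in the sources used here. Signal columns, as deposited, hold the authors' counts divided by a size factor per library. Whole reads were recovered for 100% of values within 0.001. The deposited fold changes (log2), scores and p-values were not used. The 48 genes, their roles and the other lists were chosen with earlier results of these data known.

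limma-trend (limma 3.58.1, R 4.3.3, robust) was fitted on log2(normalized count + 1), a scale that understates changes of low genes, with a mean per group over 12 libraries. Genes needed 10 normalized counts in 2 or more libraries, and calls used 0.05 after Benjamini-Hochberg adjustment in each comparison. edgeR 4.0.16 (quasi-likelihood) and DESeq2 1.42.0 on recovered reads, replicate and population blocks, other scalings, filters and left-out libraries were alternatives. Genes shown in every library had the smallest adjusted p within each role. Other genes named had the smallest in their list or were named by the rule whatever their p. TUBB4B, TRIP13, UBE2S, UBE2C, BUB3, NEK2, KIF23 at 40 min, and the promoters and levels plotted or printed, were singled out after their values were seen. The scripts were tested on simulated data.

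Deviations of same-numbered libraries from their group means correlated at 0.645 to 0.734 within an shRNA and 0.247 to 0.307 across. The numbers were therefore taken as pairs in the counts of same-numbered pairs and in the replicate and population blocks. The main limma-trend fit did not pair them. Replicates differed beyond counting noise.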

Additional observations from a re-analysis of the deposited data

How the results depend on the processing

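At 240 against 0 min all 48 genes stayed below 0 under each scaling, block, filter, pseudocount and count test. Below 0 were 47 without scramble 240 min library 2, 45 without shLAD1 0 min library 1 and 46 without shLAD1 240 min library 2. Leaving out any other library kept all 48 below 0. With a population block the number called lower was 46 in scramble and 46 in shLAD1 cells (45 and 45 from 40 min). Leaving out 1 library gave 19 to 20 and 17 to 24 (from 40 min, 18 to 21 and 17 to 25), with fewer samples. Total-count scaling moved the median of all genes by -0.13 and -0.12 and called 41 and 36 of the 48 lower. Over all tested genes it called 3346 and 2935, of which 1141 and 1016 were higher. Of all called genes 58.1% and 58.1% were higher, against 50.1% and 49% with upper-quartile and 34.1% and 34.6% with total-count scaling.

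For the knockdown the replicate block called 14, the populations as samples 0, and leaving out 1 library 2 to 9. At 0, 40 and 240 min the replicate block called 4, 3 and 4 and DESeq2 1, 1 and 1, and leaving out 1 library 0. The cause was not tested. The block changed no other count of the 48 genes by over 1.5 times.

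Signs turned for genes near 0, none of them called. With total-count scaling MYBL2 was -0.021 and -0.015 at 240 min, and in the knockdown FLNA was -0.0058 by edgeR and -0.0016 by DESeq2, against 0.010. Without 1 library, at 240 min in shLAD1 cells, E2F1 ranged from -0.34 to 0.014, MYBL2 from -0.10 to 0.31 and FZR1 from -0.18 to 0.083, and in the knockdown FLNA from -0.071 to 0.091 and WEE1 from -0.014 to 0.081. With 2 libraries a group the SE of a single EGF comparison had a median of 0.10 (log2), so small differences were not detectable.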

Other observations

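The genes outside the 48 whose levels over the 12 libraries were most like the mean of the 48 standardized genes were PSPH (Pearson r 0.99), ASAP3 and LRIG1 (0.986), MEGF9 and CKAP2 (0.983), SPAG5, CKAP5 and SPDL1 (0.982), and RHEBL1 and FAM168A (0.978). All points share libraries and the step at 240 min, so this is a description. CKAP2, SPAG5, CKAP5 and SPDL1 encode spindle or kinetochore proteins. PSPH, the last enzyme of serine synthesis, changed by -0.86 ± 0.18 (log2, SE) in scramble and -0.81 ± 0.18 in shLAD1 cells at 240 min, and LRIG1, a membrane protein that restrains EGF receptor signalling, by -0.79 ± 0.13 and -0.80 ± 0.13. RHEBL1 changed by -1.50 ± 0.41 and -1.48 ± 0.41. Within the 48, NUSAP1 and TPX2 followed the other 47 most closely (r 0.992 each), and UBE2C (0.345), BUB3 (0.43) and ANLN (0.44) least.

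EGFR, the receptor for EGF, changed by 0.59 ± 0.20 at 240 min in scramble cells (not called; called with the replicate block and by DESeq2) and by 0.73 ± 0.20 in shLAD1 cells (called). FLNA, which encodes filamin A, changed by 0.74 ± 0.19 (called) and 0.60 ± 0.19 (not called; called with the replicate block and by DESeq2). LAD1 itself rose by 0.64 ± 0.13 and 1.31 ± 0.13. In the knockdown averaged over times CDKN1A was higher by 0.55 ± 0.15, a call lost in 9 of the alternatives.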
